A study of Mus musculus with 6 samples.

Results

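The genes described here build the synaptic vesicle and the machinery that docks, fuses and retrieves it. They are 39 genes chosen by function, covering vesicle proteins, SNARE proteins, complexins, the active zone and endocytosis, of 12393 genes that the annotation names on probe sets other than controls. Of these, 35 had at least 1 probe set to themselves, 68 probe sets of 22626 in all, and Rims1, Sv2b, Sv2c and Synj1 were not analysed here. The data are expression profiles of the whole retina at postnatal day 4 (P4), with 1 Affymetrix mouse array for each of 3 Nhlh2 knockout and 3 wildtype mice. On this array a group of short probes, the probe set, reports the amount of a labelled transcript. Nhlh2 encodes a basic helix-loop-helix transcription factor of developing neurons. All 6 mice had a mixed C57/129 background, were untreated, and came as 3 pairs of littermates, each with 1 knockout and 1 wildtype mouse of the same replicate number. No probe set was named for Nhlh2 alone, so the genotypes were not checked against its level. The design of the knockout allele is not given in the sources used here.

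At a chemical synapse a vesicle protein of the VAMP family pairs with a syntaxin and a SNAP protein of the plasma membrane, and the assembled SNARE complex fuses both membranes. Synaptotagmins such as Syt1 sense calcium, complexins hold the complex ready, and NSF with the SNAP adaptors takes it apart afterwards. Scaffolds such as Bassoon and Piccolo mark the active zone, and clathrin, dynamin and their partners retrieve the membrane. In the mature retina, amacrine cells release transmitter at conventional synapses, whereas photoreceptors and bipolar cells use ribbon synapses, which hold other isoforms of several of these proteins. In the mouse retina at P4 conventional synapses are starting to form in the inner plexiform layer, and most ribbon synapses arise later.

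The array of knockout replicate 2 stood far from the other 5, and the tested differences between genotypes are given with and without it. The choice of probe set per gene, and the filter applied before the tests, used all 6 arrays in both cases. Syt1, for example, was brighter on its other probe set in each of the other 5 arrays. Its median signal before scaling was 9, against 51.4 to 95.6 in the others, and the ratio of 3' to 5' signal on its Actb control probe sets was 274, against 1.38 to 1.56. Across all probe sets, which are not independent replicates, its Spearman correlation with another array was at most 0.669, while the other 5 arrays correlated with each other at 0.947 to 0.975. Since the deposited signals did not share a scale, each array was scaled to a median of 100, and every level below is such a scaled signal. A gene was read on its probe set with the highest mean log2 level over the 6 arrays and counted as expressed in an array where it lay above 100, that is, above the array's median. Probes differ in strength, so the levels of different genes are not set against each other.

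Most of the release machinery was expressed in the P4 retina. Of the 35 measured genes, 30 were expressed in all 3 wildtype mice, 1 in a single wildtype mouse, and 4 in none. Over all 12393 genes, 51.2% were expressed in all 3 by the same rule. Counted by probe set, 48 of the 68 were, against 45.4% of all 22626. The 5 genes that fell short were Syngr3, Syn2, Vamp1, Cplx4 and Bsn. The expressed 30 held all 8 measured endocytosis genes, all 3 synaptotagmins and all 3 genes of SNARE disassembly, together with 4 of 5 SNAREs, 4 of 5 active zone genes, 4 of 5 vesicle membrane genes, 3 of 4 complexins and 1 of 2 synapsins. In both knockout replicate 1 and knockout replicate 3, 30 of the 35 were likewise expressed. The share of all genes was not computed for these knockout arrays, so this count describes no trait of the list.

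**Figure D1:**
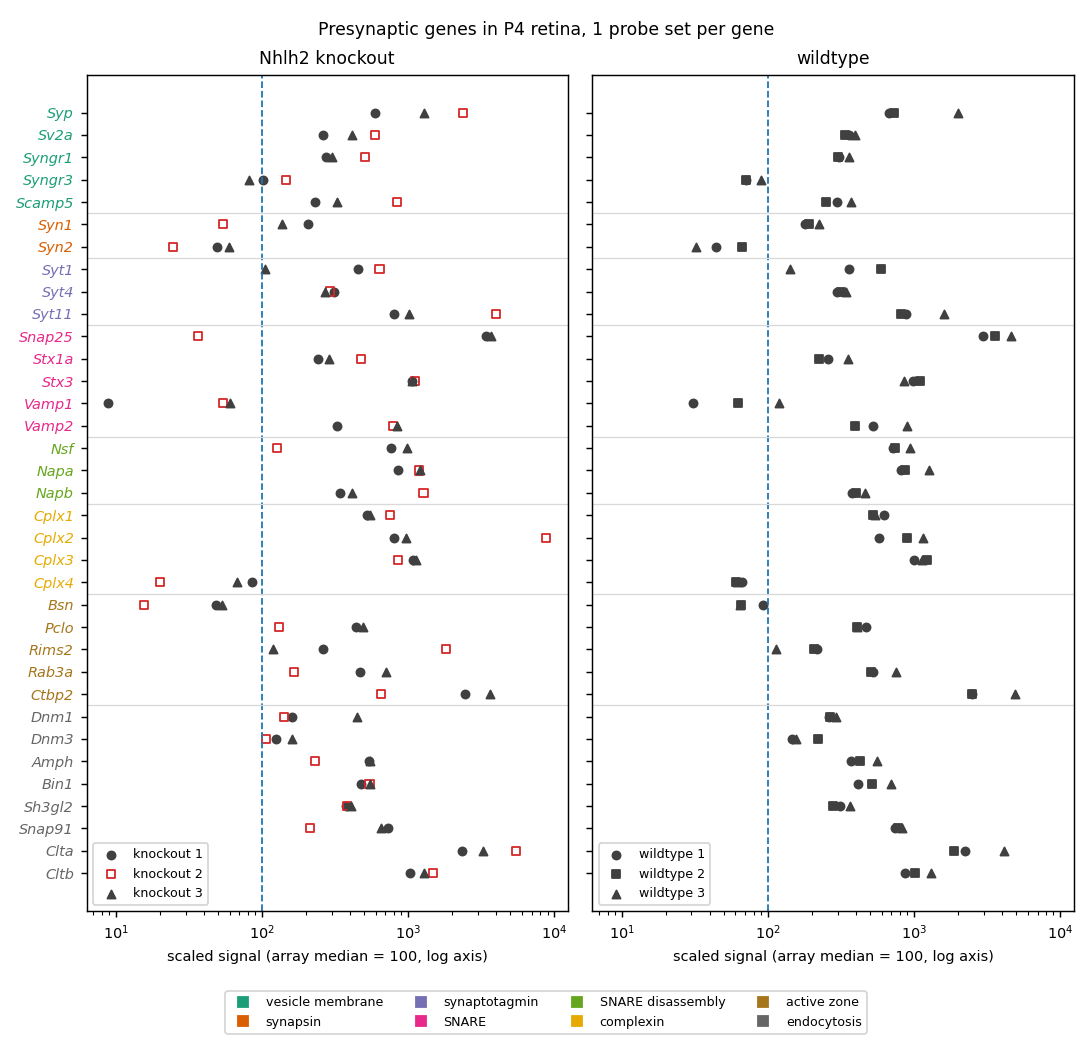
Scaled signal (log axis, array median set to 100) of the 35 measured genes in the Nhlh2 knockout arrays (left) and the wildtype arrays (right), 1 symbol per mouse, on 1 probe set per gene, with gene names coloured by role. The dashed line marks 100: 30 genes lie to its right in all 3 wildtype mice, while the open red squares of knockout replicate 2 scatter to both sides of the other knockout mice.

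Among the SNARE genes, Snap25, the neuronal SNAP protein of the plasma membrane, had 3396, 36.7 and 3714 in knockout replicates 1, 2 and 3, against 2953, 3574 and 4628 in wildtype replicates 1, 2 and 3. All 3 wildtype mice and knockout replicates 1 and 3 were thus far above the array median, and knockout replicate 2 alone was below it. Vamp2, the main vesicle SNARE of the brain, had 325, 788 and 839 in the knockout arrays, against 524, 393 and 898 in the wildtype arrays, with the groups overlapping. Its close relative Vamp1 had 8.91, 54.4 and 60.9 in the knockout arrays, against 30.8, 62.7 and 119 in the wildtype arrays, and wildtype replicate 3 was the sole array in which it passed 100. Stx1a, the syntaxin of conventional synapses, had 241, 477 and 288 in the knockout arrays, against 259.7, 226 and 356 in the wildtype arrays. Stx3, the syntaxin of ribbon synapses and also of epithelial cells, had 1068, 1116 and 1069 in the knockout arrays, against 978, 1097 and 851 in the wildtype arrays, and its 5 arrays other than knockout replicate 2 stayed between 851 and 1097. Both syntaxins were therefore expressed in every array.

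The complexins divided by gene. Cplx3, a complexin of retinal ribbon synapses that carries a lipid anchor, had 1087, 847 and 1130.2 in the knockout arrays, against 1001, 1220.2 and 1129.7 in the wildtype arrays. Its ribbon partner Cplx4 had 84.96, 20 and 67.3 in the knockout arrays, against 66.8, 60.8 and 61.4 in the wildtype arrays, below the median in all 6 arrays. Of the complexins of conventional synapses, Cplx1 had 521, 754 and 550.4 in the knockout arrays, against 619, 525 and 541 in the wildtype arrays and Cplx2 had 799.7, 8780 and 963 in the knockout arrays, against 574, 897 and 1148 in the wildtype arrays. Cplx2 in knockout replicate 2 lay far above its other 5 values, the opposite of Snap25 in that array.

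Synaptotagmins were all expressed. Syt1, the fast calcium sensor of synaptic vesicles, had 455, 637 and 104 in the knockout arrays, against 359, 591 and 141 in the wildtype arrays, with both mice of littermate pair 3 below the other 4. Syt4, of a branch of the family that binds calcium weakly, had 309, 291 and 271 in the knockout arrays, against 297, 319 and 341 in the wildtype arrays, and all 6 arrays lay close together. Syt11, of the same branch, had 800.3, 3982 and 1022 in the knockout arrays, against 884, 811 and 1592 in the wildtype arrays. Of the synapsins, which tether vesicles to each other and to actin, Syn1 had 208, 54.4 and 137 in the knockout arrays, against 179.5, 191 and 225 in the wildtype arrays, whereas Syn2 had 49.2, 24.4 and 59.3 in the knockout arrays, against 44.5, 67.1 and 32.5 in the wildtype arrays and was below 100 in every array.

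Among vesicle membrane proteins, Syp (synaptophysin) had 595, 2368 and 1289 in knockout replicates 1, 2 and 3, against 675, 734 and 2003 in wildtype replicates 1, 2 and 3. In wildtype, replicate 3 was well above the others, as it was for several genes described below. Sv2a, a glycoprotein of nearly all synaptic vesicles, had 262, 593 and 411 in the knockout arrays, against 358, 338 and 397 in the wildtype arrays. Syngr1 (synaptogyrin), a vesicle protein that spans the membrane several times, had 276, 508 and 299.6 in the knockout arrays, against 307, 304 and 361 in the wildtype arrays, while its relative Syngr3 had 102, 147 and 81.3 in the knockout arrays, against 70.6, 70.4 and 90 in the wildtype arrays. Syngr3 was below 100 in all 3 wildtype mice and above it in knockout replicates 1 and 2, by a narrow margin in replicate 1. Scamp5, a carrier membrane protein of neurons, had 231, 842 and 326 in the knockout arrays, against 298, 252 and 373 in the wildtype arrays.

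At the active zone, the scaffolds Bsn (Bassoon) and Pclo (Piccolo) differed in call. Pclo had 439, 131 and 493 in the knockout arrays, against 473, 410.3 and 406 in the wildtype arrays, and Bsn had 48.6, 15.6 and 53.5 in the knockout arrays, against 91.99, 65.4 and 64.04 in the wildtype arrays, below the median throughout. Rims2, which couples vesicles to calcium channels, had 261, 1829 and 119 in the knockout arrays, against 217, 208 and 113 in the wildtype arrays, and its lowest value in wildtype, in replicate 3, was only just above the threshold. Rab3a, the vesicle GTPase that binds RIM proteins, had 471, 167 and 703 in the knockout arrays, against 528, 508 and 758 in the wildtype arrays. The Ctbp2 locus encodes both a transcriptional corepressor of many cells and RIBEYE, the main protein of synaptic ribbons, and the annotation used here does not say which product its probe sets detect. Ctbp2 had 2448, 656 and 3629 in the knockout arrays, against 2508, 2513 and 4937 in the wildtype arrays.

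Genes of SNARE disassembly were expressed in every array. Nsf, the ATPase that separates used SNARE complexes, had 769, 127 and 975 in the knockout arrays, against 719, 739 and 935 in the wildtype arrays. Its adaptor Napa, found in all cells, had 858, 1187 and 1203 in the knockout arrays, against 813, 872 and 1269.7 in the wildtype arrays, and the neuronal adaptor Napb had 343, 1273 and 411 in the knockout arrays, against 377, 402 and 461 in the wildtype arrays. Of the endocytosis genes, Clta and Cltb encode the light chains of clathrin, which forms the coat of the retrieved vesicle. Clta had 2336, 5437 and 3274 in the knockout arrays, against 2244, 1890.5 and 4146 in the wildtype arrays, and Cltb had 1037, 1488 and 1282 in the knockout arrays, against 868, 1020.1 and 1306 in the wildtype arrays. Snap91 (AP180), a neuronal adaptor that assembles clathrin, had 727, 212 and 655 in the knockout arrays, against 746, 776 and 830 in the wildtype arrays. Amph (amphiphysin) had 538, 232 and 548 in the knockout arrays, against 369, 425 and 558 in the wildtype arrays, and Bin1, its relative in many tissues, had 477, 544 and 548 in the knockout arrays, against 415, 517 and 700.2 in the wildtype arrays. Dnm1, the dynamin that cuts vesicles off the membrane in neurons, had 162, 142 and 448 in the knockout arrays, against 262, 268 and 295 in the wildtype arrays, and its relative Dnm3 had 126, 107 and 162 in the knockout arrays, against 147, 221 and 157 in the wildtype arrays. Sh3gl2 (endophilin), which bends the membrane and recruits synaptojanin, had 375, 380 and 406 in the knockout arrays, against 310.1, 280.02 and 368 in the wildtype arrays. All 8 were above 100 in each of the 6 arrays, with Dnm3 nearest to it.

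The call of a gene depended in part on its probe set. Of 25 genes with several probe sets, 14 had the same call in wildtype on all of them, and 11 did not. No such count was made over all genes. Syp was read on a plain probe set, whose suffix marks probes designed for a single transcript, while its second one had 12.5, 3.77 and 2.98 in wildtype. The second probe set of Pclo had 25.98, 46.5 and 39.5, that of Bin1 4.07, 5.02 and 1.4 and that of Stx1a 75.2, 89.02 and 88.6, all below 100 in the 3 wildtype mice. For each of the 5 genes outside the expressed group, no probe set passed in all 3 wildtype mice. With a stricter level, above 2 times the array's median, 26 of the 35 genes passed in all 3 wildtype mice, against 38.3% of all genes. Above the array's 75th percentile 19 passed, against 25.4% of all genes. The expression call was taken from the signal alone, and below it a transcript may still be present.

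Repression by REST, a zinc finger protein that silences neuronal genes in other cells and in progenitors, acts on many presynaptic genes. Its site was searched for in the RefSeq promoters (GRCm38.p6) as TTCAGCACC and GGACAGC with 2 free letters between them, on both strands, from 250 bases before to 50 after the start site, with at most 4 mismatches in its 16 fixed letters. Promoters were found for 32 of the 39 genes, and 3 of these held a match, 9.38%, against 4.35% of all 27025 genes searched. Up to 2 mismatches, there were 2 of these genes among 22 of all. The 3 matches are shown because they are all that these promoters held, read along the strand of the motif with letters equal to it in capitals.
Scamp5: TTtAGCACCacGGACAGC
Syn1: TTCAGCACCgcGGtCAGa
Syn2: aTCAGgcCCcaGGAgAGC
The match of Scamp5 has 15 of 16 letters and lies at chr9:57468197-57468214 on the minus strand, with its first base at position -154 from the start site. That of Syn1 has 14 of 16 letters, at chrX:20921133-20921150 on the minus strand and position -232. The match of Syn2 has 12 of 16, at chr6:115238912-115238929 on the minus strand and position -82. All 3 lie before the start site, outside the transcribed part of the gene from that start. Of their genes, Scamp5 and Syn1 were expressed in all 3 wildtype mice, and Syn2 in none. A match describes letters in a promoter and not binding.

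Before the genotypes are compared, a difference between the littermate pairs needs to be given, since both mice of pair 3 differed from the others on many of the probe sets read. Before scaling, the median signal was 51.4 in knockout replicate 3 and 57 in wildtype replicate 3. It was 68.5 in knockout replicate 1, and 76.2 and 95.6 in wildtype replicates 1 and 2. Whether the litter or the handling of these arrays lies behind the difference was not tested. Of the 30 expressed genes, 18 were higher in knockout replicate 3 and wildtype replicate 3 than in knockout replicate 1, wildtype replicate 1 and wildtype replicate 2, with no overlap, and 2 were lower. These are 60% and 6.67% of the 30, against 43.2% and 11.8% of the 6341 genes expressed in all 3 wildtype mice. By scaling to a common 75th percentile the counts were 13 higher and 3 lower (34.1% and 18.2% of all expressed genes), and by quantile normalization 13 higher and 4 lower (29.8% and 21.4%). In all 3 scalings, 13 genes were higher, and Syt1 and Rims2 were lower. On the signals as deposited, which did not share a scale, 1 was higher and 10 were lower (3.25% and 50% of all expressed genes). On the probe sets read, the list holds a larger share of higher genes than all genes do under each of these scalings to a common level. No test was made of it. Other probe sets of the 18 genes mostly did not follow: of 12 past the filter, 2 were higher and 4 lower by the median scaling.

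Syp was the clearest case among the higher genes, with 595 and 1289 in knockout replicates 1 and 3, against 675, 734 and 2003 in the wildtype arrays. In either genotype replicate 3 was above the rest. Clta had 2336 and 3274 in knockout replicates 1 and 3, against 2244, 1890.5 and 4146 in the wildtype arrays and Ctbp2 had 2448 and 3629 in knockout replicates 1 and 3, against 2508, 2513 and 4937 in the wildtype arrays. For Vamp2 the values were 325 and 839 in knockout replicates 1 and 3, against 524, 393 and 898 in the wildtype arrays. Syt1 went the other way with 455 and 104 in knockout replicates 1 and 3, against 359, 591 and 141 in the wildtype arrays, and its second probe set had 724 and 126 in knockout replicates 1 and 3, against 661, 752 and 170.4 in the wildtype arrays. On both probe sets of Syt1 the mice of pair 3 were the lowest of these 5. From pair 1 to pair 3, Syt1 differed by a log2 of -2.12 between the knockout mice and -1.34 between the wildtype mice, and Syp by 1.11 and 1.57. Across the 30 genes, Pearson's r between these differences of the knockout and wildtype mice was 0.726 and Spearman's rho 0.504, as a description, against 0.563 and 0.553 over the 6341 expressed genes.

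**Figure D2:**
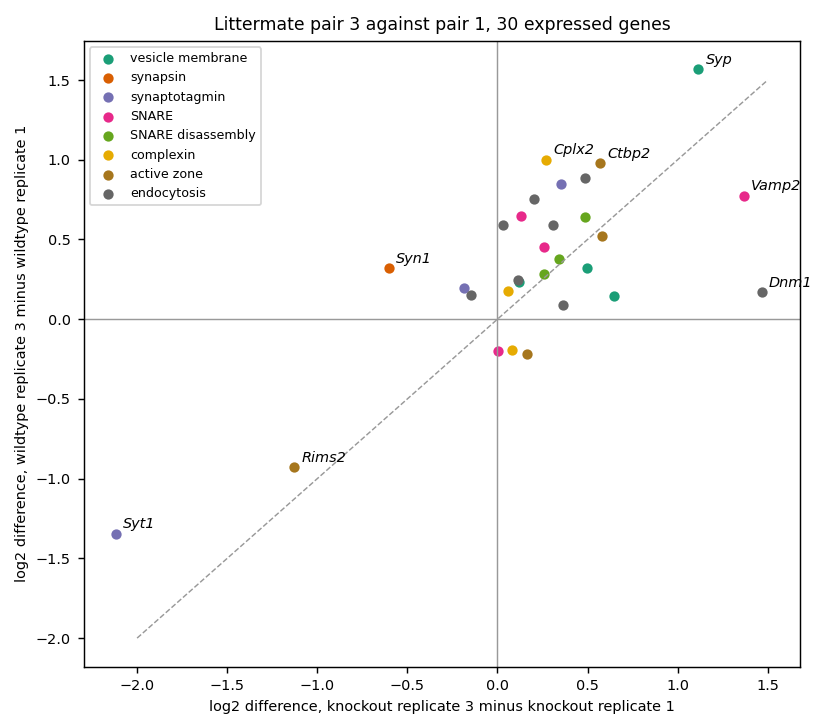
Log2 difference in scaled signal between littermate pairs 3 and 1 in the knockout mice (horizontal axis) and the wildtype mice (vertical axis), 1 point for each of the 30 expressed genes, coloured by role. The dashed line marks equal differences: Syp and Vamp2 lie at the upper right, and Syt1 and Rims2 at the lower left.

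Probe sets of 1 gene often did not follow each other between the litters. Of the 18 higher genes, 8 had another probe set past the filter, 12 in all, of which 2 were higher in both mice of pair 3 without overlap, 4 were lower and 6 overlapped. How often this holds over all genes was not counted. The second probe set of Ctbp2 had 1369 and 1267 in knockout replicates 1 and 3, against 1402, 1467 and 1178 in the wildtype arrays, lower in both mice of pair 3, and that of Clta had 1786 and 2703 in knockout replicates 1 and 3, against 1643, 1653 and 2706 in the wildtype arrays, higher in both. For Syt11 a second probe set had 905 and 498 in knockout replicates 1 and 3, against 939.6, 795 and 434 in the wildtype arrays, lower in both mice of pair 3, whereas the probe set given above was higher in both. Nsf had 769 and 975 in knockout replicates 1 and 3, against 719, 739 and 935 in the wildtype arrays on its first probe set and 369.8 and 104 in knockout replicates 1 and 3, against 333, 392 and 117 in the wildtype arrays on the second. Several sums of cell type markers differed in pair 3 as well. For 6 rod precursor markers the summed level was 20679.9 and 29045 in knockout replicates 1 and 3, against 19361, 20507 and 34306 in wildtype replicates 1, 2 and 3, and all 6 were expressed in every wildtype mouse. For 4 cone markers it was 1527 and 1943 in knockout replicates 1 and 3, against 1179, 1412 and 2255 in the wildtype arrays. For 5 amacrine markers it was 4925 and 6139 in these knockout arrays, against 5316, 5365 and 6706 in the wildtype arrays. Progenitor markers (7) summed to 10358 and 16874 in knockout replicates 1 and 3, against 11445, 7440 and 14203 in the wildtype arrays, and Mueller glia markers (4) to 6364 and 8906 in these knockout arrays, against 6387, 6748 and 7337 in the wildtype arrays. All 5 of these sums were higher in both mice of pair 3 than in the other 3, but the brightest markers weigh most in a sum. Of the single markers, Mki67, Top2a, Fgf15, Hes1, Rlbp1, Gad1 and Pde6h overlapped, and the rest were higher in both mice of pair 3. Mki67 had 2009 and 2275 in knockout replicates 1 and 3, against 2320, 1241 and 1673 in the wildtype arrays. By the same scaling, 43.2% of all expressed genes were higher in both mice of pair 3. The sums of 6 ganglion cell markers overlapped, with 3006 and 2952 in knockout replicates 1 and 3, against 3209, 2917 and 3196 in the wildtype arrays. The part of cell composition, RNA quality or array handling in the difference of pair 3 was not tested. In whole retina, fewer cells of a type and less RNA per cell cannot be told apart.

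The second comparison asked whether loss of Nhlh2 changed these genes. With limma on the log2 scaled signal of 11603 probe sets, 0% were called higher and 0% lower at an adjusted p under 0.05. Without adjustment, 10 of the 11603 (0.0862%) had a p under 0.05 with all 6 arrays, and 69 (0.595%) without knockout replicate 2. Of the presynaptic genes, 30 passed the filter on dim signals, each of them expressed in all 3 wildtype mice, with 52 of their probe sets. None of these 52 had an unadjusted p under 0.05 in either fit. The smallest was 0.132 with 6 arrays and 0.0913 without knockout replicate 2, both on the dimmest probe set of Stx3, with adjusted p-values of 0.78 and 0.999905. That probe set had 140.3 and 66.7 in knockout replicates 1 and 3, against 152, 175 and 139 in the wildtype arrays, with estimates of -0.65 ± 0.38 (SE; limma) with 6 arrays and -0.67 ± 0.34 without knockout replicate 2, whereas the probe set on which Stx3 was read had positive estimates. With the littermate pair as a block and without knockout replicate 2, which leaves 1 residual degree of freedom, 448 of the 11603 (3.86%) had an unadjusted p under 0.05, none after adjustment. Of the 52, 2 were among them, the same probe set of Stx3 and a further one of Syt11, both lower in the knockout with a limma adjusted p of 0.998356. A p that misses the threshold does not show that the levels were equal, and the intervals below give the range of differences each fit allows.

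Without knockout replicate 2, which leaves 2 knockout against 3 wildtype arrays, 29 of the 30 genes had a log2 difference within 0.3 of zero on the probe set read. Other probe sets of Stx3, Cplx1, Syt11, Napb and Nsf lay further out, at -0.67, -0.39, -0.37, -0.35 and -0.34. Neither this count nor that of the intervals below was made over all genes, so they describe no trait of this list. Sh3gl2 had the highest with 0.30 (95% interval -0.20 to 0.80) on the probe set read, although its others had -0.20 (95% interval -0.68 to 0.28) and -0.12 (95% interval -1.18 to 0.93), followed by Amph with 0.29 (95% interval -0.28 to 0.86). Syt1 had the lowest with -0.51 (95% interval -2.41 to 1.39), and as given above its values differed between the litters. Snap25 had -0.042 (95% interval -0.64 to 0.55), Cplx3 -0.0066 (95% interval -0.47 to 0.46) and Stx1a -0.064 (95% interval -0.68 to 0.55). For 24 of the 30 genes the interval lay within a log2 difference of -1 to 1, that is, within a 2-fold change either way. Among those for which it did not were Syp with -0.19 (95% interval -1.54 to 1.17) and Vamp2 with -0.13 (95% interval -1.34 to 1.09). With the littermate pair as a block, also without knockout replicate 2, it did for 30 of 30 on the probe sets read, with a median reach of 0.456 to each side. Syt1 then had -0.044 (95% interval -0.57 to 0.48), Syp -0.41 (95% interval -0.88 to 0.061) and Vamp2 -0.39 (95% interval -0.89 to 0.099). This block fit rests on pairs 1 and 3 and has 1 residual degree of freedom. Its intervals thus depend largely on the spread that limma pools over all probe sets. On other probe sets of Stx3, Napb and Cplx1 the lower end passed -1, with -1.15, -1.18 and -1.19. The direction often depended on the probe set. Of 15 genes with several probe sets past the filter, 7 had the same sign on all of them without knockout replicate 2, and 3 with all 6 arrays. The same was not counted over all genes, so it describes no trait of this list. With all 6 arrays the intervals were wider, with a median reach of 1.23 to each side against 0.61 without knockout replicate 2. Snap25 then had -2.23 (95% interval -6.45 to 1.99) and Cplx2 1.17 (95% interval -1.11 to 3.45).

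**Figure D3:**
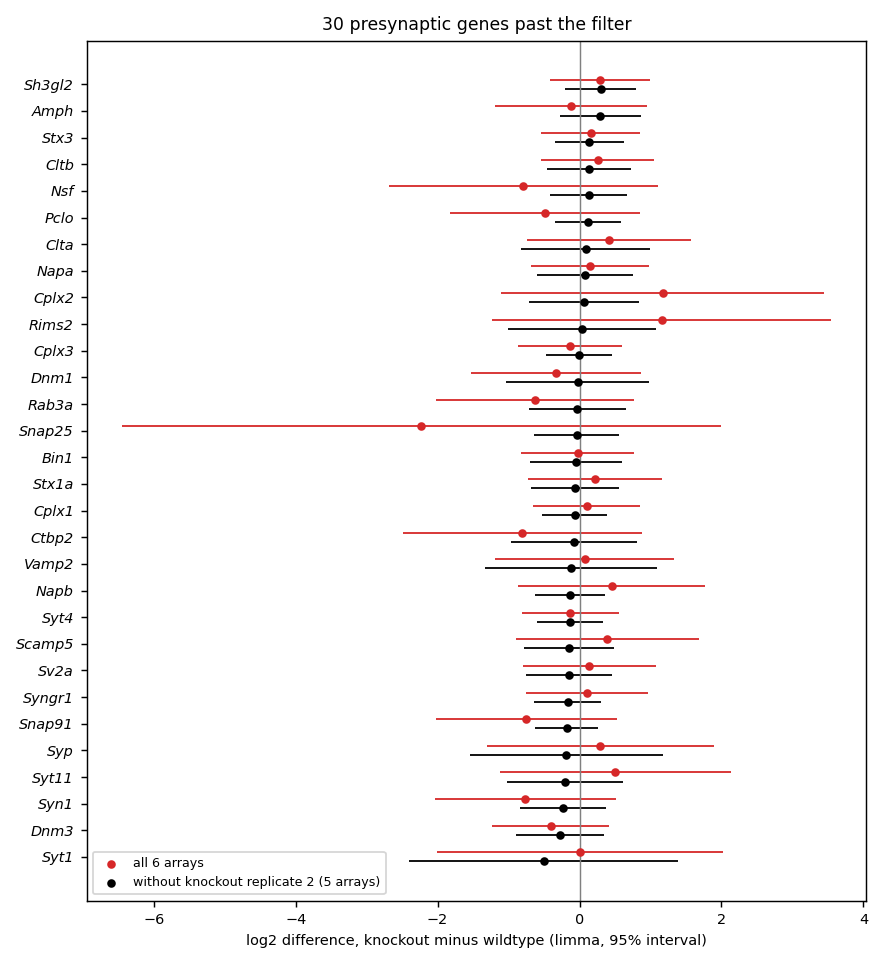
Log2 difference, knockout minus wildtype, with its 95% interval (limma) for the 30 genes past the filter, with all 6 arrays (red) and without knockout replicate 2 (black), ordered by the fit without that array. Every interval includes 0, and the 6-array estimates of Snap25, Cplx2 and Rims2 lie more than 1 away from the 5-array ones.

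Within littermates, the differences had no common direction. The median log2 difference of the 35 genes, knockout minus wildtype, was 0.058 in pair 1, 0.075 in pair 2 and -0.14 in pair 3, against -0.0053, 0.29 and 0.057 over all genes. In pair 1, 18 of 35 were higher in the knockout (49.3% of all genes), in pair 2, 19 (55.7%), and in pair 3, 12 (54.6%). Pairs 1 and 3 had the same sign for 19 of 35 genes, against 49.5% of all genes, and all 3 pairs for 8, against 24.8%. Endocytosis genes were higher in 5 of 8 in pair 1 and 3 of 8 in pair 3, and synaptotagmins in 2 of 3 and 0 of 3. Complexins were higher in 3 of 4 in both pairs, with medians of 0.23 and 0.013. Vesicle membrane genes were higher in 1 of 5 in both pairs, with medians of -0.18 and -0.19, but in 5 of 5 in pair 2.

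**Figure D4:**
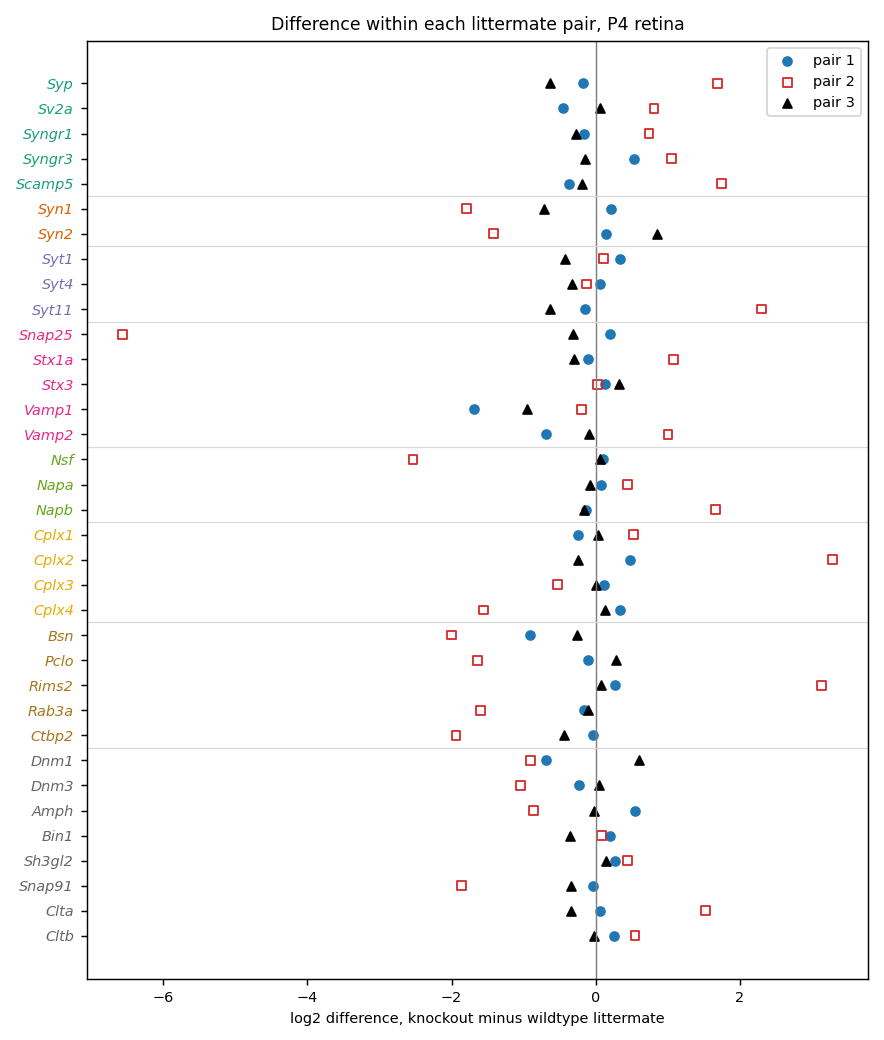
Log2 difference, knockout minus wildtype littermate, of the 35 measured genes in pair 1 (blue circles), pair 2 (open red squares) and pair 3 (black triangles), with genes grouped by role. Pair 2 runs from -6.57 for Snap25 to 3.29 for Cplx2, while pairs 1 and 3 stay between -1.68 and 0.85.

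Of the 8 genes with the same sign in all pairs, 6 had passed the filter, and these are given with their test. On the probe set read, Rims2, Sh3gl2 and Stx3 were higher in the knockout mouse of each pair. Other probe sets of these genes did not share that direction. One of Stx3 had -0.11, -0.78 and -1.05 in pairs 1, 2 and 3, one of Sh3gl2 -0.074, -1.27 and -0.18, and one of Rims2 0.17, -0.24 and -0.12. Rims2 had differences of 0.27, 3.13 and 0.068 in pairs 1, 2 and 3, and an estimate of 1.16 ± 0.99 (SE; limma, adjusted p = 0.78), which without knockout replicate 2 was 0.035 ± 0.43. Sh3gl2 had 0.27, 0.44 and 0.14 in pairs 1, 2 and 3, an estimate of 0.29 ± 0.29 (SE; limma, adjusted p = 0.78) and, without that array, 0.30 ± 0.21. Stx3 had 0.13, 0.024 and 0.33 in pairs 1, 2 and 3, with 0.16 ± 0.29 (SE; limma, adjusted p = 0.822) and 0.14 ± 0.20 in these fits.

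Snap91, Ctbp2 and Rab3a were lower in the knockout mouse of each pair, Snap91 and Rab3a on their sole probe set. The other probe set of Ctbp2 had -0.034, -1.04 and 0.10 in pairs 1, 2 and 3. For Snap91 the differences were -0.038, -1.86 and -0.34 in pairs 1, 2 and 3, and the estimate was -0.75 ± 0.53 (SE; limma, adjusted p = 0.78), or -0.18 ± 0.19 without knockout replicate 2. Ctbp2 had -0.035, -1.94 and -0.44 in pairs 1, 2 and 3, with estimates of -0.81 ± 0.70 (SE; limma, adjusted p = 0.78) and -0.078 ± 0.37. Rab3a had -0.17, -1.60 and -0.11 in pairs 1, 2 and 3, with estimates of -0.63 ± 0.58 (SE; limma, adjusted p = 0.78) and -0.033 ± 0.28. None of the 6 passed the test in either fit, and for Rims2, Snap91, Ctbp2 and Rab3a most of the 6-array estimate came from pair 2. The other 2 genes, Vamp1 and Bsn, were lower in every knockout mouse than in its littermate, with -1.68, -0.20 and -0.95 in pairs 1, 2 and 3 for Vamp1 and -0.91, -2.003 and -0.25 in pairs 1, 2 and 3 for Bsn, on levels below or near the median.

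The array of knockout replicate 2 differed from the others probe set by probe set, also within a gene. Of the 35 genes, 15 were above the other 5 arrays in it and 14 below, against 41.8% and 36.1% of all genes. Syt11 had 3982 and 2737 on 2 probe sets in this array and 90 on another, while the other arrays lay between 434 and 1592 on all 3. Syt1 had 637 and 16.7 on its probe sets, and Napb ranged from 10 to 1273 over 5. For Stx3 the probe sets had 1116, 2222 and 101. The 3' to 5' ratio of this array's Actb and Gapdh control probe sets, 274 and 15.6, stands beside these values, and its part in them was not tested.

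**Figure D5:**
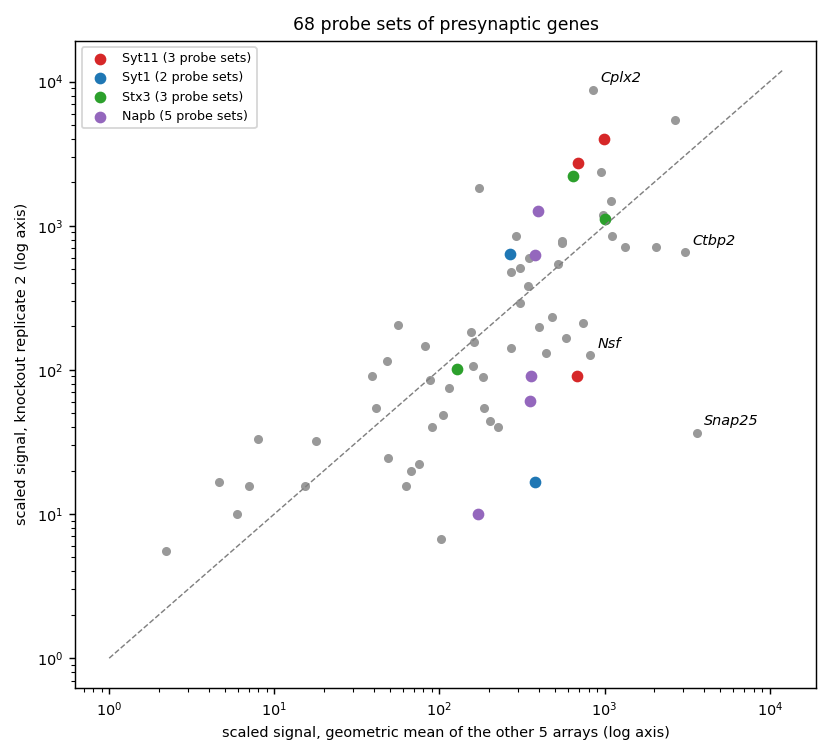
Scaled signal of all 68 probe sets in knockout replicate 2 (vertical, log axis) against the geometric mean of the other 5 arrays (horizontal, log axis), with the probe sets of 4 genes coloured. Probe sets of the same gene fall on both sides of the dashed line of equality for Syt11, Syt1 and Napb, while Snap25 lies far below it and Cplx2 above.

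Of 117 other presynaptic genes chosen from general knowledge, 94 were measured. Of these, 58 were expressed in all 3 wildtype mice, against 51.2% of all genes by the same rule, and 24 in none. No member of this list was called higher or lower by limma among 68 that passed the filter, and none had an unadjusted p under 0.05 in either fit. Partners of the genes above were among the expressed ones. Cltc, the clathrin heavy chain, had 2419, 491 and 2555 in the knockout arrays, against 2558, 2954 and 2682 in the wildtype arrays, and Ap2m1, a subunit of the clathrin adaptor, had 1367, 2089 and 1527 in the knockout arrays, against 1407, 1388 and 1548 in the wildtype arrays. Dnajc5, the cysteine string protein that chaperones SNAP25, had 1165 and 1924 in knockout replicates 1 and 3, against 1219, 1050.3 and 1821 in the wildtype arrays, again higher in the mice of pair 3. Unc13b, a priming factor, had 662 and 699.8 in knockout replicates 1 and 3, against 563, 658 and 977 in the wildtype arrays, whereas Unc13a, its main relative in the brain, had 76.4 and 86.4 in knockout replicates 1 and 3, against 65.5, 72.9 and 81.2 in the wildtype arrays and was not expressed in any wildtype mouse. Cadps, a priming factor of dense core vesicles, had 385 and 384 in knockout replicates 1 and 3, against 446, 485 and 542 in the wildtype arrays, and Doc2b, a calcium sensor, had 671 and 608 in knockout replicates 1 and 3, against 547, 570.2 and 703 in the wildtype arrays. The other synaptotagmins differed in call. Syt2 had 22.04 and 14.98 in knockout replicates 1 and 3, against 4.86, 12.97 and 10.5 in the wildtype arrays. Syt7 had 28.6 and 47.3 in these knockout arrays, against 22.05, 26.5 and 20.4 in the wildtype arrays. Both were below the threshold in all of these arrays, as were Syt3, Syt6, Syt12, Syt13 and Syt17. Syt9 had 331 and 352 in these knockout arrays, against 341, 263 and 224 in the wildtype arrays, above the threshold in each. Syt5 passed it only in knockout replicate 3 with 116.7 and wildtype replicate 3 with 116.8.

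The tissue label was checked against markers of retinal cells. All measured markers of rod precursors (6 of 6), amacrine cells (5 of 5), ganglion cells (6 of 6) and Mueller glia (4 of 4) were expressed in the 3 wildtype mice, as were 6 of 7 progenitor markers. None of 4 bipolar and none of 3 horizontal cell markers was, although several lay near 100. Of 5 lens markers none was expressed in all 3. They summed to 28.9 and 28.4 in knockout replicates 1 and 3, against 6405, 17.8 and 50 in wildtype replicates 1, 2 and 3, so that wildtype replicate 1 stood apart. Pigment epithelium markers were expressed in 4 of 5, with sums of 2216 and 2597 in knockout replicates 1 and 3, against 3132, 2558 and 1863 in wildtype replicates 1, 2 and 3.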

How the data were processed

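The deposited values are signal intensities on a linear scale, 1 for each probe set of an array, which the authors computed from the scans with MAS 5.0, an Affymetrix method that subtracts background and the signal of mismatched probes. The arrays did not share a scale. Its target level and present calls are not given in the sources used here. Of 22690 probe sets, 64 are controls, and 20380 have 1 gene symbol, 691 several and 1555 none in the platform annotation. The symbols were compared with RefSeq genes, and 0 needed an update.

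Each array was scaled to a median of 100. A constant of 1 was added before log2. Probe sets that exceeded the median signal in 3 or more of the 6 arrays entered limma 3.58.1 (R 4.3.3; lmFit and eBayes), with Benjamini-Hochberg adjustment and a threshold of 0.05. The fit was also run on simulated data, with a spread taken without knockout replicate 2 and no differences between litters. That run therefore does not show how the fit performs on these 6 arrays. Genes with a tested difference are, by rule, up to 4 per direction with the smallest p among those with the same sign in all 3 pairs. The members and lists were chosen with earlier results of these data known, and so was the scaling. Proteins were not analysed here.

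Littermate pairs come from the series design. Deviations from the group means correlated at 0.287, -0.141 and 0.177 within pairs 1, 2 and 3. Without knockout replicate 2 they correlated at 0.493 in pair 1 and 0.725 in pair 3. The deviations of knockout replicates 1 and 3 are then exact opposites. Both values thus use the same knockout contrast and are not separate support for the pairing. Knockout replicate 1 correlated more with wildtype replicate 2 (0.375, and 0.641 without knockout replicate 2) than with its littermate. Arrays give no counts or depth, so their number limits the precision. P-values rest on the spread between arrays of mice from these 3 litters, and not on the spread between mice alone. In the fits without the littermate pair as a block, that spread also holds differences between litters. In the fits with knockout replicate 2, it also holds the distance of that array from the others. How much each of these adds to the spread was not tested.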

Additional observations from a re-analysis of the deposited data

Results flagged for a closer look

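The Actb control probe sets of knockout replicate 2 had a 3' to 5' signal ratio of 274, against 1.38 to 1.56 in the 3 wildtype arrays. The Gapdh control probe sets of the same array had 15.6, against 0.698 to 0.767 in the wildtype arrays. Both were picked out because control probe sets lie outside the comparisons and exceeded every wildtype array there. The pair differences of the presynaptic genes ran from -6.57 to 3.29 in pair 2, which holds this array, and from -1.68 to 0.85 in pairs 1 and 3.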

How the results depend on the processing

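The 0 calls of the knockout comparison held under each alternative (other scalings, constant, filters, array weights, an intensity trend, each array left out, and the littermate pair as a replicate block), with smallest adjusted p-values of 0.448 to 0.999905. Unadjusted p-values under 0.05 numbered 10 with all arrays, 14 with the block, 498 with array weights, 627 with no filter, and 3 to 363 elsewhere except for 448 with the block and without knockout replicate 2. In the paired analysis the block changed no call. With 3 complete pairs it cannot move the median log2 difference of the 35 genes (0.0062), which was -0.092 with the block and without knockout replicate 2. That median was 0.14 with a common 75th percentile, -1.22 on the signals as deposited and -0.13 on plain probe sets (suffix for a single transcript), and ran from -0.061 to 0.065 with each array left out. The spread (SD) of the pair medians was 0.122. With 75th percentile scaling the median of all genes moved to 0.20 from 0.065, and on the deposited signals to -1.09. The number of genes expressed in all 3 wildtype mice was 30, and 19 above the 75th percentile, 26 above 2 times the median, 24 on the mean of plain probe sets (of 31 genes that have one), 30 on any probe set, and 30 with each wildtype mouse left out.

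Of single genes, on the signals as deposited the log2 difference of Rims2 turned to -0.077, that of Sh3gl2 to -0.94 and that of Stx3 to -1.07. With array weights, which gave knockout replicate 2 a weight of 0.0391, Rims2 turned to -0.31, Ctbp2 to 0.23 and Rab3a to 0.16. The cause of these turns was not tested. Scalings of the litter difference, and the median over genes past the filter alone, were chosen after seeing the data.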

Other observations

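Genes that set which transmitter a vesicle holds were measured beside the release machinery. Slc32a1, the vesicular transporter of GABA and glycine, had 141 and 209.5 in knockout replicates 1 and 3, against 179, 142 and 254 in the wildtype arrays and was expressed in all 5. Slc17a6, a vesicular glutamate transporter of ganglion cells, had 185 and 101 in knockout replicates 1 and 3, against 133, 149.7 and 112 in the wildtype arrays, and was expressed in each. Slc18a3, the vesicular acetylcholine transporter of starburst amacrine cells, had 48.03 and 23.7 in knockout replicates 1 and 3, against 12.7, 41.004 and 31.6 in the wildtype arrays, and Slc18a1, a monoamine transporter, had 8.76 and 31.5 in knockout replicates 1 and 3, against 33.5, 32.01 and 43.7 in the wildtype arrays, below the threshold in every one of these arrays.

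Of the calcium channel subunits that trigger release, Cacna1d had 106 and 177 in knockout replicates 1 and 3, against 106, 119.9 and 102 in the wildtype arrays, above the array median in each. Cacna1f, the channel of photoreceptor ribbon synapses, had 88.5 and 98.4 in knockout replicates 1 and 3, against 64.04, 103 and 104 in the wildtype arrays, close to the threshold on either side. Cacna1a and Cacna1b, the channels of conventional synapses, had 72.3 and 95.1 in knockout replicates 1 and 3, against 49.2, 75 and 83.9 in the wildtype arrays for Cacna1a and 11.1 and 10.9 in knockout replicates 1 and 3, against 19.3, 4.6 and 5.26 in the wildtype arrays for Cacna1b, below it.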
